A study of Mus musculus with 4 samples.

Results

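Oxidative phosphorylation (OXPHOS) is the set of reactions by which mitochondria use electrons from nutrients to pump protons and then use the proton gradient to make ATP. Complex I (NADH dehydrogenase) and complex II (succinate dehydrogenase) take up electrons, complex III (the cytochrome bc1 complex) and complex IV (cytochrome c oxidase) pass them to oxygen, and complex V is the ATP synthase. Most subunits are encoded in the nucleus and imported, while a small core of hydrophobic subunits of complexes I, III, IV and V is encoded and transcribed inside the mitochondrion, and complex II is built from nuclear genes only. Lymphocytes and macrophages rely on these complexes to differing degrees, and mature neutrophils are known for few mitochondria and a reliance on glycolysis.

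The genes described here are the structural OXPHOS subunits in a single-cell table of 32285 mouse genes. They were chosen by name: symbols of the Nduf a, b, c, s and v series followed by a number, Sdha to Sdhd, the Uqcr genes, the Cox4 to Cox8 genes and the Atp5 genes, together with the mt-Nd, mt-Co, mt-Cytb and mt-Atp genes, and without pseudogenes. The rule found 97 genes, of which 84 are nuclear and 13 mitochondrial. Complex I holds 36 nuclear and 7 mitochondrial members, complex II 4 nuclear, complex III 8 and 1, complex IV 19 and 3, and complex V 17 and 2. Ndufa4 was counted in complex IV, where its product resides, and Ndufa4l2 was left in complex I by its name. Members gave 988832 UMIs (unique molecular identifiers, which count captured RNA molecules), 2.81% of all UMIs. Of the 97 members, Cox8b and Cox8c had 0 UMIs in any cell.

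Leukocytes were taken from melanomas formed by the 20967 cell line, which was derived on a C57BL/6 background carrying Nras+LSL-G12D and Tyr::CreERT2, an allele pair in which a Cre recombinase expressed in melanocytes switches on mutant Nras when induced. Tumors of the line were raised intradermally in C57BL/6 mice of wild-type genotype, so the leukocytes themselves carried neither allele. Mice received either a control cream or clobetasol propionate, a potent topical glucocorticoid (GC), with 5 tumors in each group. Live CD45+ cells of each tumor were labeled with a hashtag antibody, sorted and pooled by treatment, and each pool was run in its own 10x channel, so treatment and channel cannot be told apart. The comparison asks how the transcripts of the respiratory complexes differ among tumor leukocytes and whether they change with GC.

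The control tumors gave 3803 cells (347 to 1250 per tumor) and the GC tumors 305 cells (18 to 111 per tumor), with between 139195 and 9869474 UMIs per tumor. No cell barcode was shared between the channels. The depositors named 16 clusters. Of the markers fixed for each class, all were highest in their own class for CD8 T cells (8 of 8), regulatory T cells (Tregs, 6 of 6), DC 1 (6 of 6) and cycling cells (7 of 7), and all but 1 or 2 of those in the table for NK cells, γδ T cells, monocytes, neutrophils, eosinophils and DC 2. Of 7 tumor-associated macrophage (TAM) markers 4 were highest in TAMs, with Apoe, Adgre1 and Csf1r higher elsewhere. The CD4 cluster was highest for only 2 of its 6 markers, with Cd3e, Cd3d, Trac and Icos higher in another class, and is called here by its deposited name. In eosinophils the granule gene Epx was at 0.

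Levels are given as mean UMIs per 10000 UMIs of the cell, averaged over the cells of a tumor, in tumors with at least 10 cells of a cluster. UMIs came from 3' libraries and were counted with intronic reads included, and levels were not divided by gene length. The part of intronic reads in the level of a member was not tested. Clusters were formed from the transcripts of the same cells, so levels across clusters are descriptions without a test. The 13 mitochondrial members make up exactly the mitochondrial percentage by which the depositors removed outlying cells, which left no cell above 5.81%.

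In control tumors the summed nuclear subunits were highest in TAMs and Monocytes 2 and lowest in neutrophils. TAMs had 99.6 ± 2.71 (SD, n = 5) UMIs per 10000, with 96.1 in the lowest and 103 in the highest tumor. Neutrophils had 40.8 ± 4.95 (n = 5), from 35.9 to 48.0. Between them stood Monocytes 2 (98.8 ± 4.75, n = 5), DC 2 (93.9 ± 8.16, n = 5), CD8 2 (91.5 ± 8.85, n = 5), NK cells (87.5 ± 6.10, n = 4), CD8 1 (86.3 ± 4.10, n = 5), Monocytes 1 (84.6 ± 2.58, n = 4), CD4 (76.2 ± 3.01, n = 5), eosinophils (65.0 ± 10.5, n = 5) and Tregs (59.6 ± 2.10, n = 5). DC 1 (n = 4) and CD8 3 (n = 3) are not listed in this order. The ranges of listed neighbors overlapped from TAMs down to Monocytes 1, and the eosinophil range of 47.2 to 74.5 took in that of the Tregs (57.9 to 61.9). Neutrophils lay below each other cluster in every control tumor that held both. The single control tumor with 10 cells of CD8 4, the proliferating cluster, had 121 UMIs per 10000.

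The summed mitochondrial subunits gave a different order, with CD4, NK, CD8 1 and CD8 2 cells on top. The CD4 cluster had 274 ± 20.5 (n = 5), NK cells 250 ± 27.1 (n = 4), CD8 1 244 ± 14.5 (n = 5) and CD8 2 243 ± 13.0 (n = 5). Monocytes 2 had 219 ± 26.3 (n = 5), DC 2 210 ± 42.9 (n = 5) and CD8 3 201 ± 12.3 (n = 3). TAMs had 195 ± 19.8 (n = 5), Tregs 155 ± 13.7 (n = 5), eosinophils 88.1 ± 13.4 (n = 5) and neutrophils 38.7 ± 11.2 (n = 5). CD4 cells were above CD8 1, CD8 2, Tregs and TAMs in all 5 control tumors in this sum and below CD8 1 and CD8 2 in all 5 in the nuclear sum. The ratio of mitochondrial to nuclear subunit UMIs was therefore 3.60 ± 0.361 in CD4 cells, 2.83 ± 0.148 in CD8 1, 2.60 ± 0.202 in Tregs, 1.96 ± 0.209 in TAMs, 1.38 ± 0.248 in eosinophils and 0.975 ± 0.376 in neutrophils (n = 5 each). In TAMs the nuclear sum lay above and the mitochondrial sum below those of the CD4 and CD8 1 cells in each of the 5 tumors.

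**Figure D1:**
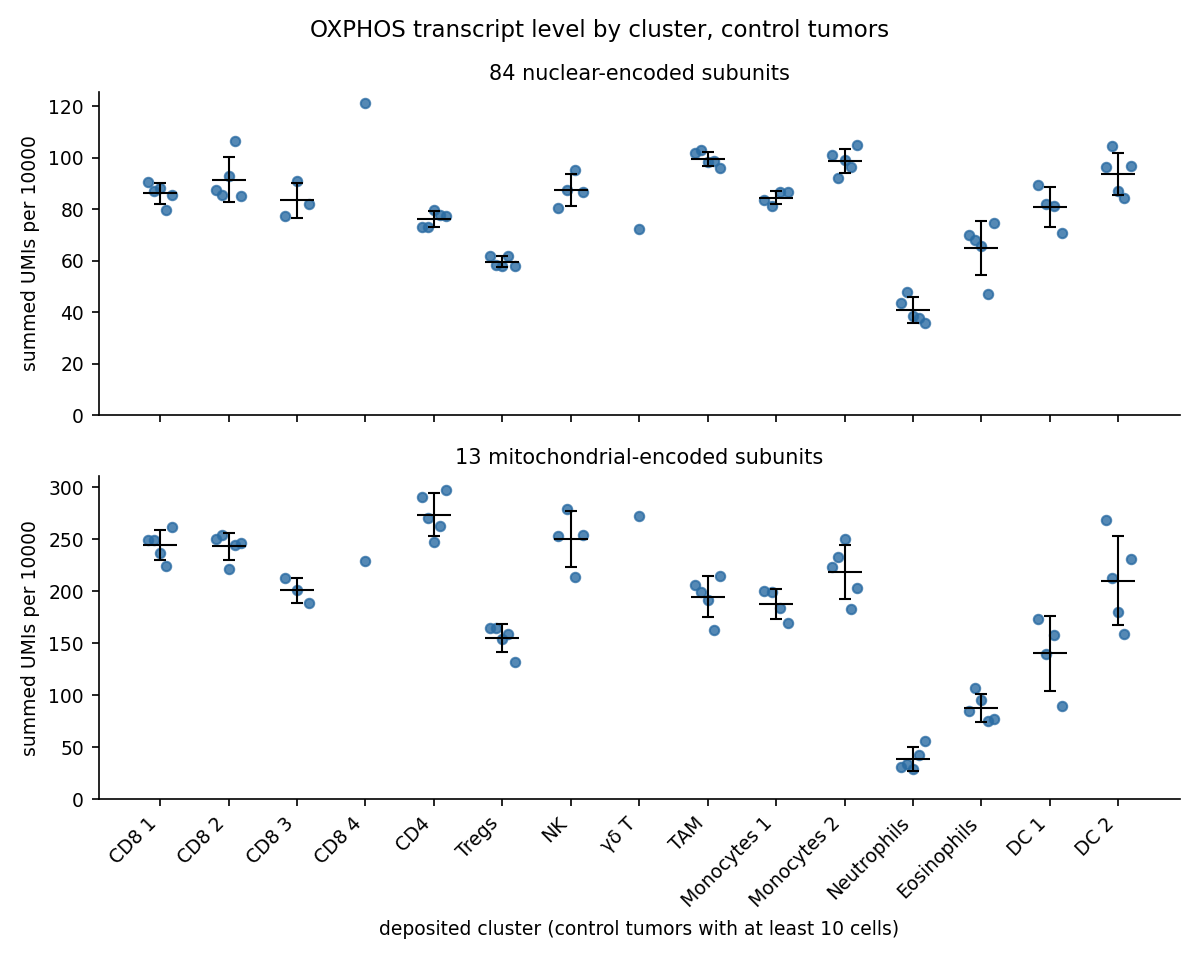
Summed OXPHOS subunit transcripts in UMIs per 10000 (vertical axes, from 0) for each deposited cluster (horizontal axis), nuclear subunits above and mitochondrial subunits below. Points are control tumors with at least 10 cells of the cluster and bars are the mean ± SD, with TAMs at 99.6 and neutrophils at 40.8 in the upper panel and CD4 cells at 274 in the lower.

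Most single members followed the sums. Of the 75 nuclear members with a mean of at least 0.2 UMIs per 10000 over the 9 clusters present in all 5 control tumors, TAMs held the highest level of 26 and Monocytes 2 of 19, and neutrophils held the lowest of 52. Of the 13 mitochondrial members, CD4 cells held the highest level of 12 and neutrophils the lowest of 13. Tregs and the CD4 cluster differed in one direction for most members: Tregs were lower for 64 of the 75 nuclear members, with a median ratio of 0.786, and for 13 of 13 mitochondrial members, with a median ratio of 0.522. This held in all 5 tumors for 28 of the 75 nuclear and 12 of the 13 mitochondrial members. Neutrophils were lower than TAMs for 74 of 75 nuclear members (median ratio 0.366), and the exception was Ndufa12, an accessory subunit of complex I, at a ratio of 1.40. The lower level held in all 5 control tumors for 62 of the 75, while the higher level of Ndufa12 did not hold in all 5. These counts between clusters were made on members only, without the share over all genes beside them. Levels are shares of a cell's UMIs, and the 10 neutrophil markers alone summed to 503 to 728 per 10000 in control neutrophils. Whether other genes were lower in the same way was not tested. The summed macrophage markers were 9.26 to 14.4 in control neutrophils and 159 to 190 in control TAMs. This sum does not measure RNA from other cells in the same droplets. In GC neutrophils C1qb and C1qc were at 0, and the sum was still 6.26 to 9.72. The share of neutrophil subunit UMIs that came from other cells was not tested.

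The complexes took similar shares of the nuclear sum in each cluster with at least 4 control tumors. Complex I made up between 24.1% (DC 1) and 29.3% (eosinophils), complex II between 2.09% (DC 2) and 3.95% (eosinophils), complex IV between 25.2% (CD8 1) and 30.1% (DC 1), and complex V between 30.0% (eosinophils) and 34.1% (neutrophils). For complex III the range was 10.0% to 11.8% in all of these clusters but eosinophils, which were at 6.94% ± 1.52 (n = 5).

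Within complex I, the most abundant nuclear transcript of TAMs was Ndufa2, an accessory subunit of the matrix arm, at 2.34 UMIs per 10000, against 1.32 in neutrophils and 1.13 in Tregs. Among the catalytic core subunits, Ndufs1, which carries iron-sulfur clusters, was highest in CD4 cells at 0.68 and was 0.39 in TAMs. The flavoprotein subunit Ndufv1, where NADH is oxidized, was low in all clusters, at 0.18 in TAMs. Ndufs4, a subunit needed for assembly of the NADH arm, stood out as a lymphoid transcript: it was 1.77 in CD4 cells, 1.73 in NK cells and 1.40 in CD8 1, and 0.970 in TAMs and 0.905 in Monocytes 2. Ndufa4l2, a relative of Ndufa4, had 41 UMIs in all cells together.

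Complex II was led by its flavoprotein Sdha, which oxidizes succinate. Sdha was 1.36 in eosinophils, 1.28 in CD8 2, 1.26 in CD4 cells, 1.20 in Tregs, 0.91 in TAMs and 0.39 in neutrophils, so here Tregs were above TAMs. The membrane anchors Sdhc and Sdhd were 0.50 and 0.53 in TAMs and 0.29 and 0.19 in Tregs. In complex III the hinge protein Uqcrh, which sits beside cytochrome c1, was the most abundant nuclear member, at 4.34 in CD8 1, 4.25 in CD4 cells, 3.25 in TAMs, 1.65 in neutrophils and 1.24 in eosinophils. All 8 nuclear members of complex III had a lower mean in eosinophils than in TAMs, as did 68 of the 75 nuclear members compared. Among the 8 was Uqcrb, which binds ubiquinone, at 0.56 and 1.14.

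Complex IV is the complex with tissue-specific isoforms, and in these leukocytes the general forms made up nearly all of the UMIs. Cox4i1 was 4.40 UMIs per 10000 in TAMs and 4.95 in Monocytes 2, while its oxygen-responsive relative Cox4i2 was 0.10 in TAMs and at most 0.08 in the other clusters with 4 or more control tumors. Cox6a1 reached its highest level in eosinophils, at 3.03, against 1.90 in TAMs, and its muscle isoform Cox6a2 was detected at 0.15 in DC 2 and had 28 UMIs in all cells. Cox6b1 was 2.96 in TAMs and the testis isoform Cox6b2 0.03. Cox7a2 was 1.83, Cox7a2l, which takes part in supercomplex formation, 1.91 and the muscle form Cox7a1 0.05 in TAMs. Cox8a was 2.63 in TAMs, with Cox8b and Cox8c at 0. Ndufa4 departed from the rest of its complex: it was 1.98 ± 0.457 in NK cells (n = 4), 1.68 ± 0.361 in Monocytes 2, 1.36 ± 0.382 in CD4 cells and 1.08 ± 0.359 in eosinophils, and 0.44 ± 0.052 in TAMs and 0.25 ± 0.153 in neutrophils (n = 5 each). The ranges of Monocytes 2 (1.32 to 2.17) and TAMs (0.36 to 0.49) did not overlap, with a ratio of 3.80, although both are mononuclear phagocytes with nearly equal nuclear sums.

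In complex V the most abundant TAM transcripts were Atp5l at 3.75 and Atp5e at 3.71, small subunits of the membrane and catalytic parts. The catalytic β subunit Atp5b was 1.38 and the α subunit Atp5a1 1.81. A set of 3 nuclear genes encodes the same mature c-ring protein, and in TAMs Atp5g2 was 2.52, Atp5g3 1.76 and Atp5g1 0.55 UMIs per 10000. Neutrophils had 0.34, 0.36 and 0.07, and in eosinophils Atp5g3 (1.63) was above Atp5g2 (1.06), so the lead of Atp5g2 over Atp5g3 was not seen in either. Of the mitochondrial transcripts, TAMs held 58.4 UMIs per 10000 of mt-Co1, the catalytic subunit of complex IV, 31.2 of mt-Atp6, the proton channel of complex V, 10.6 of mt-Cytb, the electron-carrying core of complex III, and 10.4 of mt-Nd4, a proton-pumping subunit of complex I.

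Eosinophils differed from all other clusters in the proportions of the mitochondrial transcripts. The ratio of mt-Co1 to mt-Co2, which encode the catalytic and the copper-binding subunit of complex IV, lay between 1.78 and 2.66 in all 52 combinations of control tumor and cluster from the 13 clusters other than eosinophils and neutrophils. In eosinophils of the 5 control tumors mt-Co1 had 95, 127, 299, 96 and 51 UMIs and mt-Co2 had 152, 195, 459, 163 and 103, giving ratios of 0.625, 0.651, 0.651, 0.589 and 0.495. All 5 ratios were below that of every other cluster in any control tumor. Neutrophils lay between, at 0.965 to 1.60 in control tumors. The ratio of mt-Nd3 to mt-Nd4, both complex I subunits, was 0.768 to 1.09 in eosinophils and 0.151 to 0.310 in the 13 clusters. These counts were small, and eosinophils were the shallowest cells, with a median of 873.5 UMIs in controls. In the 1 GC tumor with 10 eosinophils the mt-Co1 to mt-Co2 ratio was 1.23 (54 and 44 UMIs), outside the control range, and in TAMs of GC tumors 2 and 3 it was 1.70 and 1.64.

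**Figure D2:**
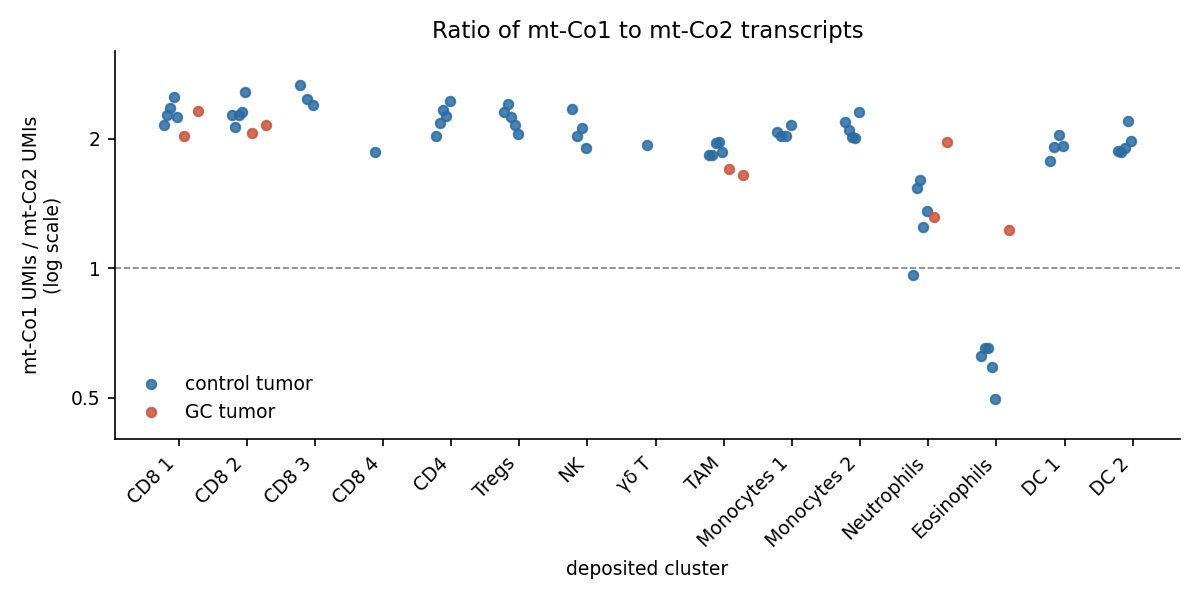
Ratio of mt-Co1 UMIs to mt-Co2 UMIs (vertical log axis) by deposited cluster (horizontal axis), with 1 point for each control or GC tumor with at least 10 cells of the cluster. The control eosinophils lie between 0.495 and 0.651, below the dashed line at 1, and the control points of clusters other than eosinophils and neutrophils lie at 1.78 or above.

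The GC comparison was made over tumors in the classes with at least 10 cells in 2 or more tumors of each group: TAMs (5 control and 2 GC tumors), CD8 T cells (5 and 3) and neutrophils (5 and 2). GC tumors 2 and 3 entered all of these, with 17 and 16 TAMs. The test was limma on log2(mean + 0.1) across all genes, with the Benjamini-Hochberg adjusted p under 0.05 as the threshold, and edgeR's quasi-likelihood test on UMI sums beside it. In bulk values of this kind, less RNA per cell and fewer cells of a state within the class cannot be told apart. Relative to limma's zero, the median log2 change of all genes tested was -0.12 in TAMs and -0.09 in CD8 T cells, and changes are best read against that shift.

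In TAMs after GC, 6 nuclear subunits rose and 5 mitochondrial subunits fell by limma, of which 5 and 1 also passed edgeR. By limma 6 of the 76 nuclear members tested were higher, against 6.86% of all genes, and 0 were lower. Of the 13 mitochondrial members 5 were lower, against 14.3% of all genes, and 0 were higher. Some of the 13 overlap on the same strand (mt-Atp8 with mt-Atp6, mt-Atp6 with mt-Co3, mt-Nd4l with mt-Nd4), so they are not fully independent counts. By both tests 5 nuclear members (Ndufa7, Cox5b, Cox8a, Uqcrb and Atp5d) were higher, against 5.76% of all genes, and 1 mitochondrial member (mt-Co1) was lower, against 4.21%. By edgeR alone 6 were higher, against 6.93%, and 1 was lower, against 4.26%. At an unadjusted limma p under 0.05 there were 9 higher, against 11.8%, and 12 lower, against 23.9%. The nuclear count is thus near the share of all genes. In sign, 45 of 76 nuclear members and 1 of 13 mitochondrial members had a limma change above 0, against 38.9% of all genes.

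Ndufa7, an accessory subunit of complex I (chr17:33824572-33838317, plus strand), was 1.00, 0.889, 0.871, 0.960 and 1.05 UMIs per 10000 in TAMs of control tumors 1 to 5 and 1.76 and 1.59 in those of GC tumors 2 and 3. Both GC tumors were above all control tumors, a log2 change of 0.75 ± 0.14 (SE, limma adjusted p = 0.00387). Cox5b, a zinc-binding subunit of complex IV (chr1:36691449-36693681, plus strand), was 1.14, 1.16, 1.20, 1.13 and 0.875 in control tumors and 1.96 and 1.65 in GC tumors. Its groups did not overlap either, with control tumor 5 standing below its group, and the log2 change was 0.67 ± 0.15 (limma adjusted p = 0.0113). Cox8a, the smallest subunit of complex IV (chr19:7215153-7217616, minus strand), was 2.39 to 2.87 in control tumors, with a median of 2.64, and 3.40 and 3.79 in GC tumors. This was a log2 change of 0.44 ± 0.12 (limma adjusted p = 0.0234), the smallest among the nuclear members called by limma.

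Uqcrb, the ubiquinone-binding subunit of complex III (chr13:66900617-66905378, minus strand), was 0.928 to 1.33 in control tumors, with a median of 1.23, and 1.58 and 1.78 in GC tumors. It rose by 0.53 ± 0.17 on the log2 scale (limma adjusted p = 0.0492), close to the threshold. Atp5d, the δ subunit of the rotor of complex V (chr10:80138632-80145818, plus strand), was 0.644, 0.799, 0.790, 0.795 and 1.03 in control tumors and 1.39 and 1.10 in GC tumors. The log2 change was 0.57 ± 0.18 (limma adjusted p = 0.0431), and GC tumor 3 was only just above control tumor 5. Atp5j, coupling factor 6 of the stator of complex V (chr16:84827866-84835625, minus strand), was 1.23 to 1.39 in control tumors and 2.16 and 1.66 in GC tumors, a log2 change of 0.52 ± 0.14 (limma adjusted p = 0.0252), and did not pass edgeR (adjusted p = 0.0846). Atp5md, a small membrane subunit of complex V, passed edgeR (log2 change 0.53, adjusted p = 0.0485) but not limma (adjusted p = 0.0859). The genes Cbarp, Gm10767 and Gabpa overlap Atp5d, Uqcrb and Atp5j on the opposite strand in the GENCODE M21 annotation, and whether counting used strand was not given in the sources used here.

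The promoter windows shown are those of the nuclear members called higher by both tests. Their shared direction follows from that choice, and 5 of 76 nuclear members is near the 5.76% of all genes called so. Whether they are regulated together was not tested. RefSeq windows on GRCm38.p6, from 250 bases before to 50 after an annotated start, were at hand for 67 of the 84 nuclear members, in 72 windows, and for 4 of the 5 called genes, the missing one being Uqcrb. In the lines below capitals mark matches on either strand to the motifs listed after them.
Ndufa7 chr17:33824322-33824621, plus strand: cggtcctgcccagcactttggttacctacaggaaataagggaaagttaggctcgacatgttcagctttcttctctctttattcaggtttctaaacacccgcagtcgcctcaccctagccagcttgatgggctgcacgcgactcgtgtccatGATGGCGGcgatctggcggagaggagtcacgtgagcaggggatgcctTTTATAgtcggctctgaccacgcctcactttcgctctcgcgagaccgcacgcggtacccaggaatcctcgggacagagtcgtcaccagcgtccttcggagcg
Cox5b chr1:36691237-36691536, plus strand: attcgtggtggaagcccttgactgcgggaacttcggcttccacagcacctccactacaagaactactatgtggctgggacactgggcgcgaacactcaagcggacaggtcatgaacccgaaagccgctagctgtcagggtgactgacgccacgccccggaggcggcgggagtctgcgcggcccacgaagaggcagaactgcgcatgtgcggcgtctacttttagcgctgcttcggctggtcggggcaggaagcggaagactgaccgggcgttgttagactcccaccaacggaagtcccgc
Cox8a chr19:7217567-7217866, minus strand: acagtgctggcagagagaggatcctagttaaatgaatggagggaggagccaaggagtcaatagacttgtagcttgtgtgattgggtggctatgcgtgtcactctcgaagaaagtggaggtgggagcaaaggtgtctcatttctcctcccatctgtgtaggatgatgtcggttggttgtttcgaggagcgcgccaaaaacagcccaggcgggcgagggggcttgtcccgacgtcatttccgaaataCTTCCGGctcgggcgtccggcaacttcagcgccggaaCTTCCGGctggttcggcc
Atp5d chr10:80142025-80142324, plus strand: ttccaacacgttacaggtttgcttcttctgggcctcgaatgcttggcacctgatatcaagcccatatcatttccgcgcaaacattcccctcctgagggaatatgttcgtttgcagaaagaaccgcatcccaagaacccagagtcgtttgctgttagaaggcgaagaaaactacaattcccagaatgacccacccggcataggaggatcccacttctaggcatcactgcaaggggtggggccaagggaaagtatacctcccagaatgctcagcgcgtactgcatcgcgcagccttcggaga
Ndufa7 held GATGGCGG (YY1) and TATAAA, the latter read on the opposite strand, and Cox8a held CCGGAAG (ETS factors) at 2 places on the opposite strand. Cox5b and Atp5d held no exact match to the motifs searched. Near matches were not counted, such as GCGCATGT in the Cox5b window. Atp5d had a second window starting 80142065, and neither of its windows begins at the GENCODE start of the gene.

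Among all 72 member windows, GCGCATGC (NRF1) was in 10 (13.9%, against 2.71% of all 32851 windows), CCGGAAG in 17 (23.6%, against 8.86%), GATGGCGG in 7 (9.72%, against 1.70%) and AAGGTCA (ERR) in 8 (11.1%, against 4.72%). TATAAA was in 9 (12.5%, against 13.6%). The full palindromic glucocorticoid receptor element was in 0 member windows, against 0.00913% of all windows, and its monomer AGAACA was in 10 (13.9%, against 19.0%). AGAACA lies within the full element, so a window with the latter also counts for the former. The windows of the comparison were not matched for base composition, and a match is a run of letters, not a bound site.

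Among mitochondrial members in TAMs, mt-Co1 was 60.4, 58.2, 59.7, 50.6 and 63.1 UMIs per 10000 in control tumors 1 to 5 and 43.2 and 35.1 in GC tumors 2 and 3. Both GC tumors lay below all control tumors, and mt-Co1 fell by 0.58 ± 0.11 on the log2 scale (limma adjusted p = 0.00460, edgeR adjusted p = 0.0294). The other copper-bearing subunit of complex IV, mt-Co2, was 25.9 to 34.4 in control tumors and 24.6 and 21.4 in GC tumors (log2 change -0.43 ± 0.12, limma adjusted p = 0.0250, edgeR adjusted p = 0.199). The complex I subunit mt-Nd1 was 7.32 to 9.72 and then 6.41 and 6.62 (log2 change -0.41 ± 0.13, limma adjusted p = 0.0428, edgeR adjusted p = 0.408), and both GC tumors were again below all control tumors. For mt-Atp6 the values were 25.3 to 34.4 in control tumors and 25.6 and 20.1 in GC tumors, which overlapped (log2 change -0.45 ± 0.13, limma adjusted p = 0.0335, edgeR adjusted p = 0.301). The rare transcript mt-Nd6, the only subunit encoded on the light strand, was 0.281 to 0.513 in control tumors and 0.0865 and 0.178 in GC tumors (log2 change -1.02 ± 0.24, limma adjusted p = 0.0115, edgeR adjusted p = 0.168), and it overlaps mt-Nd5 on the other strand. Thus mt-Co1 alone among the mitochondrial members passed both tests. Of the mitochondrial members that passed neither, mt-Cytb was 8.28 to 11.9 in control tumors and 8.71 and 9.61 in GC tumors (limma adjusted p = 0.350), and mt-Nd4l was the only one with a log2 change above 0 (0.17, limma adjusted p = 0.593).

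**Figure D3:**
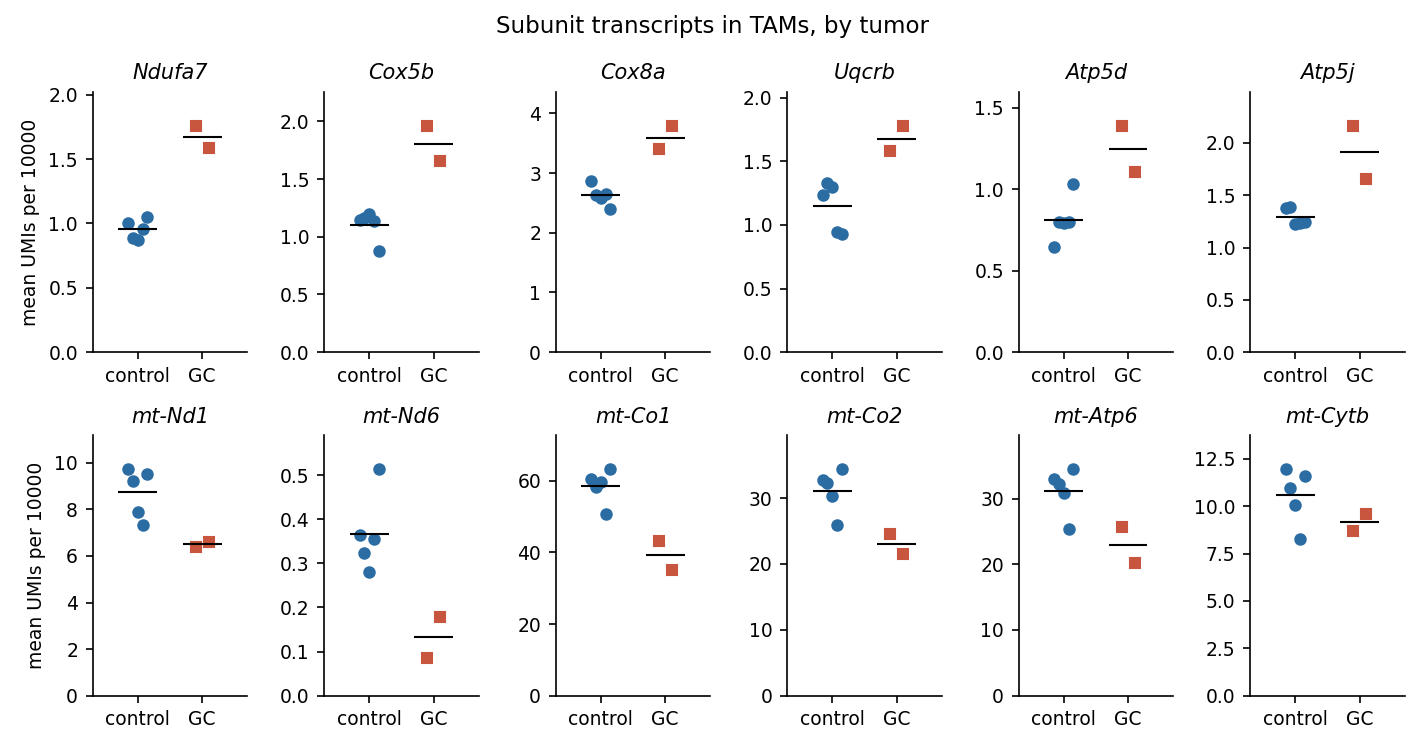
Mean UMIs per 10000 (vertical axes, from 0) of 12 subunit transcripts in TAMs, with 1 point for each of 5 control and 2 GC tumors and a bar at the group mean. In the upper row of nuclear genes both GC tumors lie above the control tumors, while in the lower row of mitochondrial genes they lie below for mt-Nd1, mt-Nd6, mt-Co1 and mt-Co2 and among them for mt-Cytb.

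The summed mitochondrial subunits of TAMs were 206, 200, 191, 163 and 214 UMIs per 10000 in control tumors and 155 and 136 in GC tumors, and the nuclear sums were 102, 103, 98.5, 98.7 and 96.1 against 115 and 102. The mitochondrial groups did not overlap, and the nuclear groups did. The ratio of the sums was 1.65 to 2.23 in control tumors and 1.34 and 1.33 in GC tumors. GC tumors 4 and 5, with 3 and 7 TAMs, were not tested and had mitochondrial sums of 176 and 156 and nuclear sums of 98.2 and 120. Single members whose groups did not overlap numbered 13 that were higher after GC, all nuclear, against 12.9% of all genes, and 14 that were lower, of which 6 were mitochondrial, against 23.6%.

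Depth moved with treatment in TAMs, and the mitochondrial difference was smaller in the deeper cells. TAMs had a median of 12883 UMIs in control and 17855 in GC tumors. The control channel was also loaded with more cells than the GC channel. In TAMs with at least 10000 UMIs, a restriction chosen after the data were examined, the mitochondrial sums of control tumors were 146 to 194 and those of GC tumors 161 and 136, which overlapped, and the difference in means was -26.9 in place of -49.6. In these cells limma called Cox5b, Atp5d, Ndufa7 and Cox8a higher, against 6.4% of all genes, and mt-Co1, mt-Nd6, mt-Atp8 and Ndufb6 lower, against 13.7%. By edgeR Cox5b, Atp5d and Cox8a were higher, against 6.35%, and 0 members were lower, against 3.8%, with 15 members at an unadjusted p under 0.05, against 24.6%. The neutrophil marker list also moved with the comparison: its sum in TAMs was 13.9 to 17.1 in control and 22.8 to 28.9 in GC tumors, with Cxcr2, Il1r2 and S100a8 of its 5 tested genes higher by limma and S100a9, Retnlg, G0s2 and Mmp9 at 0 in the GC tumors. The summed macrophage markers were 159 to 190 and 127 to 170, with C1qb higher and Cd74, Csf1r and Ctsb lower by limma among the 10 tested. The part of depth, channel and these markers in the subunit changes was not tested further.

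Leaving out 1 tumor at a time, Cox5b, Ndufa7, mt-Co1 and mt-Nd6 passed limma in each of the 7 fits. The others did not: Uqcrb lost its call in 6 of these 7 fits, Atp5d and mt-Atp6 and mt-Nd1 in 5 each, and Atp5j, Cox8a and mt-Co2 in 3 each. Leaving out a GC tumor left 1, whose spread was then assumed to be that of the controls. Without GC tumor 3 there were 12 higher, against 11.8% of all genes, and 9 lower, against 23.5%, and without GC tumor 2 there were 6 higher, against 10.1%, and 10 lower, against 19.6%. The counts thus depended on which GC tumor was kept.

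By complex, the median log2 change of nuclear members in TAMs by limma was 0.03 in complex I (35 tested), -0.37 in complex II (4 tested), 0.17 in complex III (8 tested), 0.04 in complex IV (12 tested) and 0.03 in complex V (17 tested). Of complex II, Sdha was 0.802 to 1.05 in control tumors and 0.549 and 0.858 in GC tumors (log2 change -0.35, limma adjusted p = 0.192), and none of its 4 members passed. The mitochondrial medians were -0.25 in complex I (7 tested), -0.43 in complex IV (3 tested) and -0.50 in complex V (2 tested), and -0.19 for mt-Cytb of complex III. Under edgeR the median was 0.14 for the nuclear and -0.20 for the mitochondrial members, with 51 of 76 and 4 of 13 above 0, against 49.7% of all genes.

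**Figure D4:**
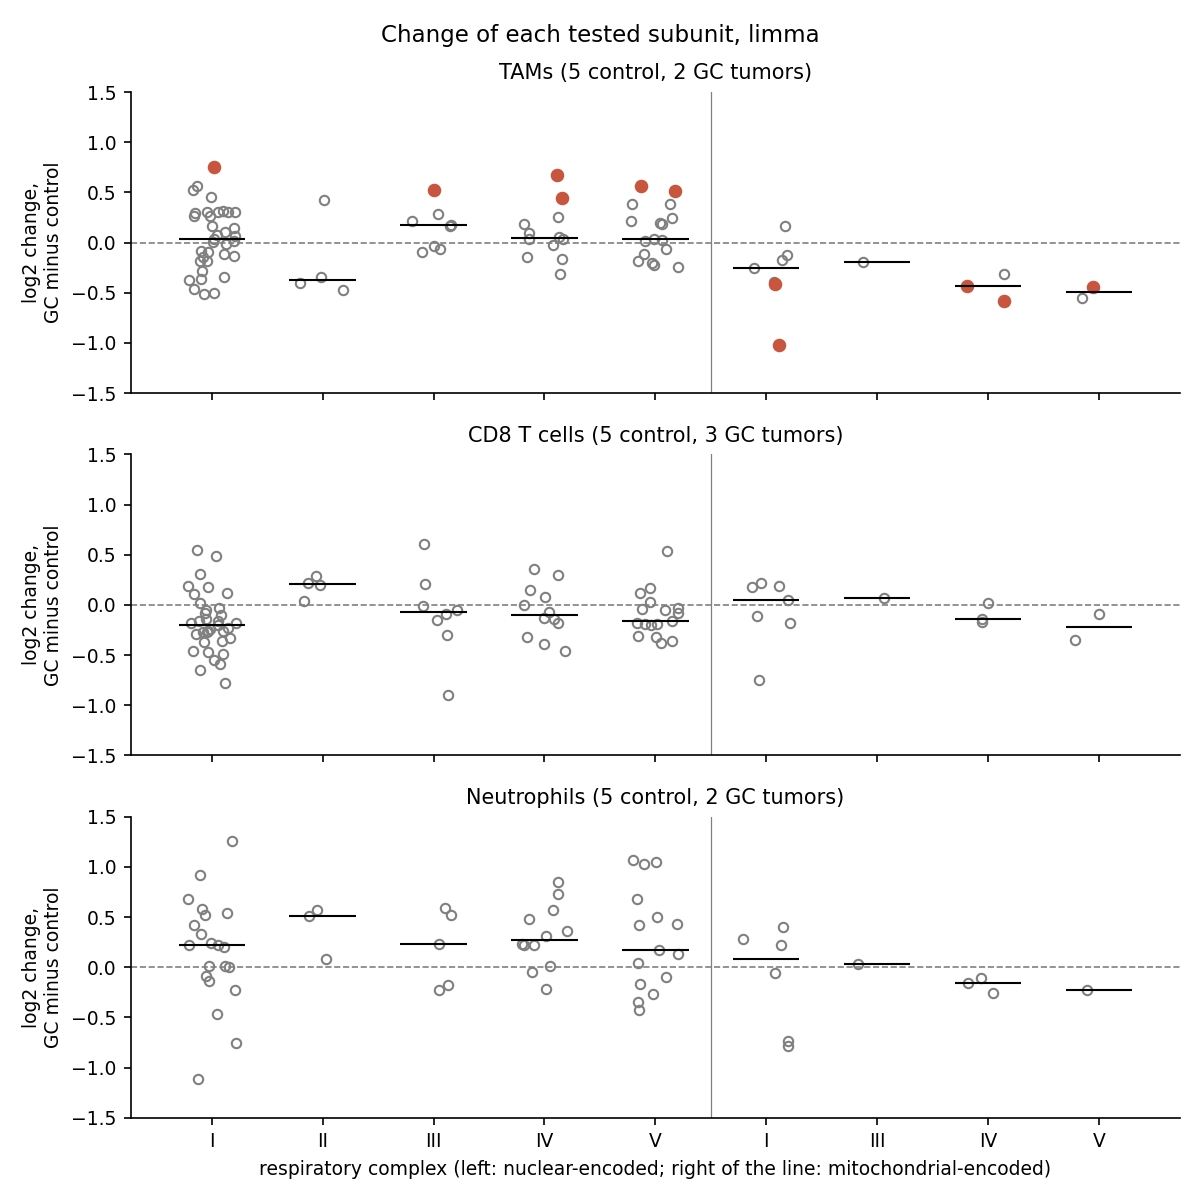
Log2 change of each tested subunit, GC minus control by limma (vertical axes), by respiratory complex (horizontal axis), with nuclear members left of the line and mitochondrial members right of it. Filled points passed at an adjusted p under 0.05 and bars are medians: in TAMs 6 nuclear members passed above and 5 mitochondrial members below the dashed zero line, and none passed in CD8 T cells or neutrophils.

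In CD8 T cells (clusters CD8 1 to CD8 3) 0 of 89 members tested passed limma, against 2.27% of all genes called higher and 2.74% called lower. At an unadjusted p under 0.05 there were 2 higher, against 7.65%, and 6 lower, against 14.2%. By edgeR 2 members were higher, against 3.9% of all genes, and 0 lower, against 2.27%, and DESeq2 also called 2. The groups did not overlap for 3 members that were higher after GC, against 5.7%, and 5 that were lower, against 9.55%. In sign, 23 of 76 nuclear and 6 of 13 mitochondrial members had a limma change above 0, against 40.9%, and by edgeR 46 of 76 and 5 of 13 did, against 51%. The median nuclear change was -0.15 by limma and 0.06 by edgeR, so the sign depended on the test. Atp5d was 0.749 to 0.862 UMIs per 10000 in the 5 control tumors and 1.27, 1.19 and 1.18 in GC tumors 2, 3 and 5, so that all GC tumors were above all control tumors (log2 change 0.54 ± 0.14, limma adjusted p = 0.0529, edgeR adjusted p = 0.0336). Cox8a was 1.99 to 2.26 in control tumors and 1.95, 3.36 and 3.02 in GC tumors (log2 change 0.36 ± 0.17, limma adjusted p = 0.243, edgeR adjusted p = 0.0181), with GC tumor 2 below the controls. Both were also called by edgeR in TAMs, and the 2 comparisons share the mice. In the other direction Ndufa2 was 1.67 to 2.01 in control tumors and 0.905, 1.37 and 1.45 in GC tumors (limma adjusted p = 0.0621), without overlap. GC tumor 2 gave only 12 CD8 T cells: without it Atp5d, Cox8a and Uqcrc1, a core subunit of complex III, were called higher, against 4.3% of all genes, and mt-Co1 and mt-Atp8 lower, against 5.46%, by limma. Without GC tumor 3, Ndufa2, Ndufb10, Uqcrq and Cox7c were called lower, against 5.57%, and without GC tumor 5 Ndufa2 was, against 5.09%.

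The nuclear sums of CD8 T cells were 85.2 to 90.1 in control tumors and 69.9, 98.0 and 82.5 in GC tumors 2, 3 and 5, and the mitochondrial sums were 224 to 252 and 262, 217 and 205. GC tumors thus lay on both sides of the controls in each sum. In cluster CD8 1 alone (5 control and 2 GC tumors) Cox8a was higher (log2 change 0.59, limma adjusted p = 0.0387, against 2.62% of all genes) and mt-Co1 lower (-0.36, limma adjusted p = 0.00796, against 3.76%), and neither passed edgeR, which called 2.44% of all genes higher and 1.16% lower and had 7 members at an unadjusted p under 0.05, against 15.4%. In cluster CD8 2 limma called 0 members, against 1.07% of all genes higher and 1.05% lower, and edgeR 0, against 1.19% and 0.329%. At an unadjusted limma p under 0.05 there were 5 higher, against 6.41%, and 5 lower, against 9.21%. The GC cells were deeper here too, with a median of 9741 UMIs against 6826.

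In neutrophils 0 of 67 members tested passed limma or edgeR, against 2.09% of all genes called higher and 2.74% called lower by limma and 2.63% and 1.97% by edgeR, which had 0 members at an unadjusted p under 0.05. DESeq2 also called 0. At an unadjusted limma p under 0.05 there was 1 higher, against 8.5%, and 0 lower, against 9.84%. Only Atp5k, a small subunit of the membrane part of complex V, had such a p by limma: it was 0.453, 1.01, 0.564, 0.566 and 0.585 UMIs per 10000 in control tumors and 0.782 and 2.37 in GC tumors 2 and 3, which overlapped (limma adjusted p = 0.269). The nuclear sums were 35.9 to 48.0 in control tumors and 47.9 and 54.1 in GC tumors, and the mitochondrial sums 28.8 to 56.2 and 41.9 and 25.8. Of 56 nuclear members 41 had a log2 change above 0, against 51.8% of all genes, and 4 were above all control tumors in both GC tumors, against 11.3%, with 0 below them, against 10.9%. These tumors gave 19 and 14 neutrophils. Without GC tumor 2, which left 1 GC tumor whose spread was assumed to be that of the controls, mt-Nd1 and mt-Nd4 were called lower, against 3.79% of all genes.

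The difference between classes was tested itself, since a call in TAMs and none in CD8 T cells does not show that they differ. In a limma fit for each pair of classes, with tumor as a block, the GC change differed between CD8 T cells and TAMs for 0 of 89 members (against 5.15% of all genes), between CD8 T cells and neutrophils for 0 of 67 (against 2.58%) and between TAMs and neutrophils for 0 of 67 (against 2.8%). At an unadjusted p under 0.05 there were 15 members, against 21.1% of all genes, then 4, against 17.1%, and 1, against 17.6%. For mt-Co1 the change in CD8 T cells minus that in TAMs was 0.41 ± 0.14 (limma adjusted p = 0.112), and for Cox5b it was -0.74 ± 0.27 (limma adjusted p = 0.122).

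Genes that work beside the complexes were counted in lists of other pathway members. Calls were by limma, which over all genes called 6.86% higher and 14.3% lower in TAMs. The shares of all genes were 2.27% and 2.74% in CD8 T cells and 2.09% and 2.74% in neutrophils. In TAMs 6 of 19 glycolytic genes tested were higher and 0 lower by limma, with Gapdh at a log2 change of 0.92, Pkm at 0.63, Aldoa at 0.58, Pgam1 at 0.54, Eno1 at 0.49 and the regulator Pfkfb3 at 0.69. The mitochondrial uncoupling protein gene Ucp2 (0.65) and Ndufab1 (0.75), an acyl carrier protein that also sits in complex I but is outside the naming rule, were the only 2 higher of 14 carrier and coupling genes. Of 15 assembly factors 0 were higher, and Cox20 (-0.82) and Taco1 (-1.06), which act on COX2 and COX1, were lower. This count of 2 was near the share of all genes called lower. Of 13 genes tested in the tricarboxylic acid cycle list, Pdha1 (0.99) was higher and Sucla2 (-0.77) lower. Pdha1 encodes a subunit of pyruvate dehydrogenase, which feeds the cycle, so no enzyme of the cycle itself was called higher. Of 8 regulators of mitochondrial biogenesis Hif1a (-0.79) and Yy1 (-0.59) were lower. None of 5 genes of mitochondrial DNA expression passed. In CD8 T cells Taco1 (-0.96) and the outer membrane channel Vdac1 (-1.10) were lower and 0 of 18 glycolytic genes passed. In neutrophils Ucp2 was higher (1.41) and Hif1a (-0.94) and the lactate exporter Slc16a3 (-0.93) were lower. Of the genes given as lower, Cox20, Sucla2 and Yy1 in TAMs, Vdac1 in CD8 T cells and Hif1a and Slc16a3 in neutrophils did not pass edgeR (adjusted p = 0.257, 0.139, 0.240, 0.0895, 0.0849 and 0.0748 in that order). As a check of exposure, 7 of 9 GC target genes were higher in TAMs, 4 of 7 in CD8 T cells and 5 of 8 in neutrophils. By edgeR the counts were 7, 5 and 3 in that order.

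The remaining clusters had too few GC tumors with 10 cells for a test, and their pooled values have no replicate check. Intervals are exact 95% Poisson intervals, cover counting error only and leave out the spread between tumors. The 32 GC eosinophils had 169 mitochondrial subunit UMIs per 10000 (156 to 182), against 85.9 (83.2 to 88.6) in control eosinophils, with nuclear values of 65.2 (57.5 to 73.6) and 68.0 (65.6 to 70.4). By tumor, however, the mitochondrial means of GC tumors 1 to 5 were 262, 131, 46.4, 19.1 and 236, from 4, 10, 9, 1 and 8 cells, against 75.8 to 107 in control tumors. GC tumors lay on both sides of the control range, so the pooled difference was not shared by the tumors. In the 21 GC monocytes the mitochondrial value was 154 (150 to 158), against 194 (192 to 195), with nuclear values of 93.7 (90.5 to 97.1) and 91.7 (90.9 to 92.5). Cluster Monocytes 1 gave 18 of these 21 cells and 311 of the 449 control monocytes. In it GC tumors 2, 3 and 5 had mitochondrial means of 104, 193 and 102, from 7, 9 and 2 cells. Control tumors with at least 10 of its cells had 170 to 200, so GC tumor 3 lay within the control range. The 14 GC Tregs had 135 (129 to 142) mitochondrial UMIs per 10000, against 145 (143 to 146), and nuclear values of 80.4 (75.5 to 85.5) and 68.5 (67.6 to 69.4). Treg mitochondrial means of GC tumors 1 to 5 were 115, 174, 190, 136 and 95.2, against 132 to 165 in control tumors. Their nuclear means were 95.6, 86.0, 97.6, 70.5 and 62.7, against 57.9 to 61.9. These GC tumors gave 1, 2, 5, 1 and 5 Tregs. The 10 GC cells of the CD4 cluster had 215 (206 to 224) mitochondrial UMIs per 10000, against 263 (261 to 266). In this cluster GC tumors 1 to 5 had mitochondrial means of 158, 95.3, 189, 173 and 376. They gave 1, 1, 6, 1 and 1 cells. Control tumors had 247 to 297, so GC tumors lay on both sides of the control range. The 10 GC cells of DC 1 went the other way, with a pooled mitochondrial value of 175 (170 to 181), against 146 (144 to 148).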

How the data were processed

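The deposited matrix held natural log values, ln(1 + UMIs per 10000), for 4108 hashtagged cells. Per the study's methods and processing notes, the authors used Cell Ranger 7.1.0 on mm10 with intronic reads and Seurat 5.0.3 in R 4.3.1, kept cells with 1 hashtag (singlets), removed cells outlying by MAD in counts, genes or mitochondrial percent, integrated the channels and clustered. The deposited counts per cell (UMIs) and mitochondrial percent are the authors' own. No doublet caller was run here, so doublets within a tumor may remain. Values were turned back into UMIs, whole for 100% of 10330441 values (tolerance 0.01). UMIs per 10000 were averaged per tumor and class (at least 10 cells) and tested two-sided by limma 3.58.1 (trend, robust) in R 4.3.3 on log2(mean + 0.1), over genes with a mean of at least 0.2, with Benjamini-Hochberg adjustment. Alternatives were edgeR 4.0.16 (quasi-likelihood) and DESeq2 1.42.0 on UMI sums, other pseudocounts, filters, scalings and cell minimums, and leaving out each tumor. Scripts were tested on simulated data. Groups came from the sample labels, and each hashtag is 1 mouse. Named genes are members past the threshold in a tested class, the most abundant member of each complex and origin, the isoform sets, and list genes past the threshold. Other members (such as Ndufs1, Ndufs4, Ndufv1, Ndufa12, Sdhc, Sdhd, Atp5b, Atp5a1, Atp5k and mt-Nd3) were named after their values were seen. Members and lists were chosen with earlier results of these data known. Gene positions are from GENCODE M21 (GRCm38).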

Additional observations from a re-analysis of the deposited data

Results flagged for a closer look

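Of 63 groups of 4 or more tumors examined for a value far from the others, 1 stood out, and chance gives about 1 in 20. In control TAMs Cox5b was 0.875 UMIs per 10000 in control tumor 5, below the 1.13 to 1.20 of the other control tumors. Without control tumor 5, Cox5b was still called higher after GC by limma.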

How the results depend on the processing

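In TAMs the 6 higher members became 2 with no filter on low values and 3 by edgeR in cells with at least 10000 UMIs (chosen after the data were examined), and 2 to 12 leaving out 1 tumor. The 5 lower members became 1 by edgeR or DESeq2, 2 with no filter, with at least 5 cells per tumor or with median-of-ratios scaling, 0 by edgeR in the deep cells, and 2 to 10 leaving out 1 tumor. In CD8 T cells the 0 higher members became 2 by edgeR or DESeq2, 1 with a pseudocount of 1, median-of-ratios scaling, the mean of log values or cluster CD8 1 alone, 3 with at least 20 cells per tumor, and 0 to 3 leaving out 1 tumor. The 0 lower members became 1 with a mean of at least 1 or cluster CD8 1 alone, 2 with at least 20 cells, and 0 to 4 leaving out 1 tumor. In neutrophils 1 was higher with the mean of log values, and 0 to 2 were lower leaving out 1 tumor. The GC minus control difference in CD8 nuclear sums was -3.92, 2.85 with at least 20 cells and -11.2 to 2.85 leaving out 1 tumor. For CD8 mitochondrial sums it was -12.6, -29.7 with at least 20 cells and -29.7 to -1.08 leaving out 1 tumor. For neutrophil nuclear sums it was 10.2, and 16.7 with at least 5 cells. For TAM nuclear sums it was 8.76, 12.8 with at least 5 cells and 2.02 to 15.5 leaving out 1 tumor. For TAM mitochondrial sums it was -49.6, and -26.9 in the deep cells. The cause of these moves was not tested. A minimum of 20 cells could not be run for TAMs or neutrophils. No paired analysis was possible because the hashtag numbers only name mice and each treatment was a channel of its own. GC tumors gave 12 to 41 cells per tumor and class tested, which limits single members of low level.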
